A study of Danio rerio with 8 samples.

Results

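The pituitary hormones other than growth hormone were examined in whole zebrafish larvae that lack a working pex2 gene. The genes were prl, pomca, tshba, cga, fshb, lhb, smtla and smtlb, and their probes were found by the RefSeq accession that the scanner files give for each probe. Of the 8 genes, 7 had a probe, and the 7 genes shared 8 probes out of 39749 on the array. No probe was matched to smtla. The probes carried NM_181437.3 (prl), NM_181438.3 (pomca), NM_181494.2 (tshba), NM_205624.1 (fshb), NM_205622.2 (lhb), NM_001037674.1 (smtlb), and NM_205687.2 and XM_005169876.4 (both cga). The array files name an older genome build than the annotation used for gene names, so no positions are given.

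The study compared mutant larvae (pex2-/-, named in the labels by their typeC allele) with wild-type siblings (pex2+/+) at 5 weeks of age, as a fish model of Zellweger syndrome. Pex2 is a peroxisomal membrane protein that takes part in importing the enzymes of that organelle. There were 4 pools per genotype, each of RNA from the whole bodies of 3 larvae, and each pool was hybridised to its own Cy3-labelled array. Tail fin DNA was used for genotyping, and the labels give no sex. Nothing in the labels says whether pools of a genotype came from separate clutches, so each p-value reflects variation among these pools, which may be technical.

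The pituitary is a small gland under the brain whose cell types each release their own hormone. Prolactin (prl) acts on salt and water balance in fish, and the somatolactins (smtla, smtlb) are fish hormones of the same family as prolactin and growth hormone. The glycoprotein hormones pair a common alpha subunit (cga) with a beta subunit of their own, tshba for thyrotropin, fshb for follicle-stimulating hormone and lhb for luteinising hormone. The precursor made by pomca is cut into corticotropin, which drives cortisol synthesis, and into melanocyte-stimulating hormone, which acts on pigment cells. A pituitary is a very small share of a whole larva, so its transcripts were read here against the RNA of every other tissue.

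Most of the hormone probes lay at the background of the array, so the data hold a level for pomca and not for the others. Whether the unmeasured probes detect their transcripts could not be tested here. Their low signal therefore does not show that a transcript was absent. An array counted as measuring a probe when more than 50% of its spots, outlier spots left out, were well above background by the scanner software. By that rule 6 of the 8 probes, for the 5 genes prl, fshb, lhb, smtlb and cga, were measured on 0 of 8 arrays. The tshba probe was measured on 1 array and the pomca probe on 7. Of all probes on the array, 17.1% were measured on no array. Among the 300 probes that had 10 spots each, as those of prl, fshb, lhb, pomca and growth hormone (gh1) do, 11.7% were measured on no array.

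Background was read from 308 negative control spots per array, whose median intensity lay between 2.70 and 4.53 over the 8 arrays. The dimmest probe that was still well above background had an intensity between 12.2 and 20.9, depending on the array. The 75th percentile of intensity, used for scaling, ran from 611 to 839 on the sibling arrays and from 454 to 499 on those of the mutants. Its log2 was 9.44 ± 0.22 and 8.89 ± 0.08 (SD, n = 4 a genotype), and an exact permutation test over the 70 splits, two-sided, gave p = 0.0286, its lowest possible value. The median of the negative controls was 3.66 ± 0.772 and 3.35 ± 0.842 (SD, n = 4 a genotype; p = 0.657 by the same exact test). After scaling, the log2 median of the negative controls was 0.41 higher on the mutant arrays, which did not pass the test (p = 0.0571, exact permutation test). The 6815 probes never well above background had a median scaled difference, mutant minus sibling, of 0.41 on the log2 scale.

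Prolactin was not measured in either genotype. Its intensity, a geometric mean over up to 10 spots, ranged from 3.27 to 4.77 in sibling pools and from 2.78 to 4.57 in mutants. Both ranges lie close to the negative controls and under the dimmest measured probe of every array. Of its 79 spots over all arrays, 0 were well above background, and 9 (11.4%) exceeded the 95th percentile of the negative controls on their array. No fold is given, because both genotypes were at background.

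The gonadotropin subunits were at background too. For fshb the intensity ranged from 2.91 to 4.38 in sibling pools and from 2.68 to 4.50 in mutants, and 0 of 73 spots exceeded the 95th percentile of the negative controls. For lhb it ranged from 3.12 to 4.87 in sibling pools and from 2.87 to 4.54 in mutants, with 12 of 75 spots over that percentile and 0 well above background. One lhb spot out of 10 was far brighter than the rest on each of 4 arrays, at 64.3 in sibling replicate 1, 921 in sibling replicate 3, 63.2 in sibling replicate 4 and 96.4 in mutant replicate 2. The scanner software marked these 4 spots as outliers and they were left out. The other lhb spots used on those arrays did not exceed 7.24.

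The common alpha subunit cga was read by a pair of probes. The probe with 1 spot had an intensity between 2.99 and 4.44 in the sibling pools and between 2.71 and 4.55 in the mutant pools. The probe with 2 spots ranged from 2.71 to 4.49 in mutants and from 2.94 to 10.1 in siblings, and the high value, in sibling replicate 1, came from 1 spot of 19.6 that was not well above background.

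Thyrotropin beta, tshba, had 1 spot per array. Its intensity was 5.08, 17.8, 7.91 and 4.16 in sibling replicates 1 to 4 and 6.19, 5.30, 2.89 and 4.81 in mutant replicates 1 to 4. Sibling replicate 2 was the array on which it was well above background. Of its 8 spots over all arrays, 5 (62.5%) exceeded the 95th percentile of the negative controls. The genotypes overlapped, and with a measurement on 1 array the probe did not enter the test. For smtlb, with 2 spots, the intensity ranged from 2.93 to 12.5 in sibling pools and from 2.76 to 9.04 in mutants. Its high values came from 1 spot each in sibling replicate 1 (32.8) and mutant replicate 4 (18.4), and the companion spot was at background in both.

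**Figure D1:**
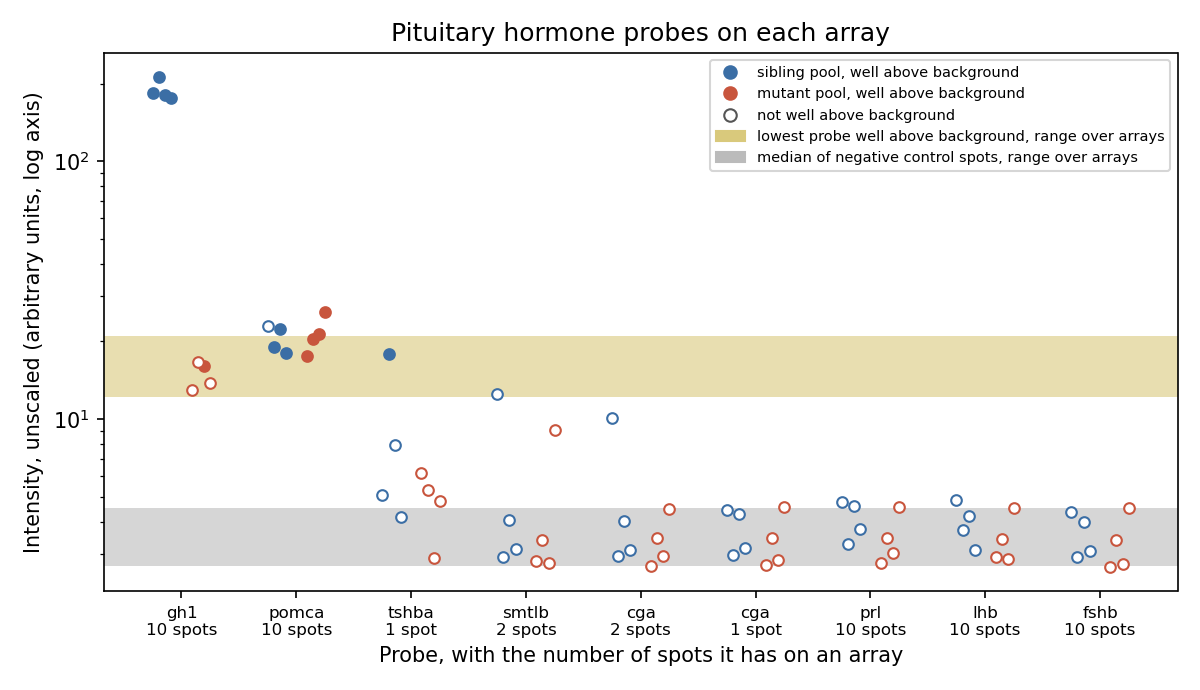
Unscaled intensity (log axis) of the 8 hormone probes and of gh1 in each of the 4 sibling and 4 mutant pools. Filled points are well above background, open points are not. The grey band is the range of the negative control medians, 2.70 to 4.53, and the yellow band the range of the dimmest measured probe, 12.2 to 20.9. The prl, fshb and lhb points lie in or beside the grey band, and pomca at or just above the yellow one.

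The pomca probe was the dim exception. Its unscaled intensity was 23.0, 19.0, 22.4 and 18.0 in sibling replicates 1 to 4, and 17.5, 20.5, 21.4 and 26.1 in mutant replicates 1 to 4. The genotypes overlapped on this scale, with means of 20.6 ± 2.50 and 21.4 ± 3.55 (SD, n = 4 each). All 72 spots used exceeded the 95th percentile of the negative controls, and 57 were well above background. Sibling replicate 1, with 3 of its 7 spots well above background, was the array that did not measure it. The SD between spots of an array was between 0.12 and 0.32 on the log2 scale. The probe ranked between the 25.0 and 33.6 percentile of all probes on its array.

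After scaling to the 75th percentile of each array, log2 pomca was -5.19, -5.03, -5.01 and -5.09 in the sibling pools. It was -4.70, -4.47, -4.53 and -4.26 in the mutant pools, so every mutant pool was above every sibling pool. The log2 difference was 0.59 ± 0.11 (SE, n = 4 pools per genotype; limma, adjusted p = 0.00236). The hormones thus gave 1 call, against a background of 57.6% of 17263 named genes called at the same threshold of 0.05, with 29.9% higher and 27.8% lower, and 58.6% of 29935 kept probes. In whole-body RNA, a change in the number of cells of a type and a change in RNA per cell cannot be told apart.

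The pomca difference was close in size to the scaling step. Without scaling it was 0.046 ± 0.16 (SE; limma, adjusted p = 0.824), and the log2 of the 75th percentile differed by -0.54 between the genotypes. Without scaling the median of all kept probes was -0.43, and 1151 named genes were called higher and 8822 lower, against 5156 and 4794 with it. Against the median of the probes never well above background, pomca was 0.18 higher on either scale, as the scaling step cancels there. Of those probes, 25.8% had a difference as large as that of pomca. Among them 35 probes had 10 spots, as pomca has, so the share is not matched for the number of spots averaged. Normexp background correction models the background of each array, and here and below it added an offset of 50 to every value. That offset is above every pomca intensity, so it makes dim probes alike and shrinks their log2 changes before scaling. With it pomca differed by 0.50 and the probes never well above background by a median of 0.46, and the offset set part of this closeness. With quantile scaling the values were 0.49 and 0.06. The part of background signal in the pomca difference was not tested. On row 1 of the slide the scaled difference was 0.44 and on row 2 it was 0.73, with 2 pools of each genotype per row. The negative control medians were between 2.70 and 3.11 on row 1 and between 3.43 and 4.53 on row 2.

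**Figure D2:**
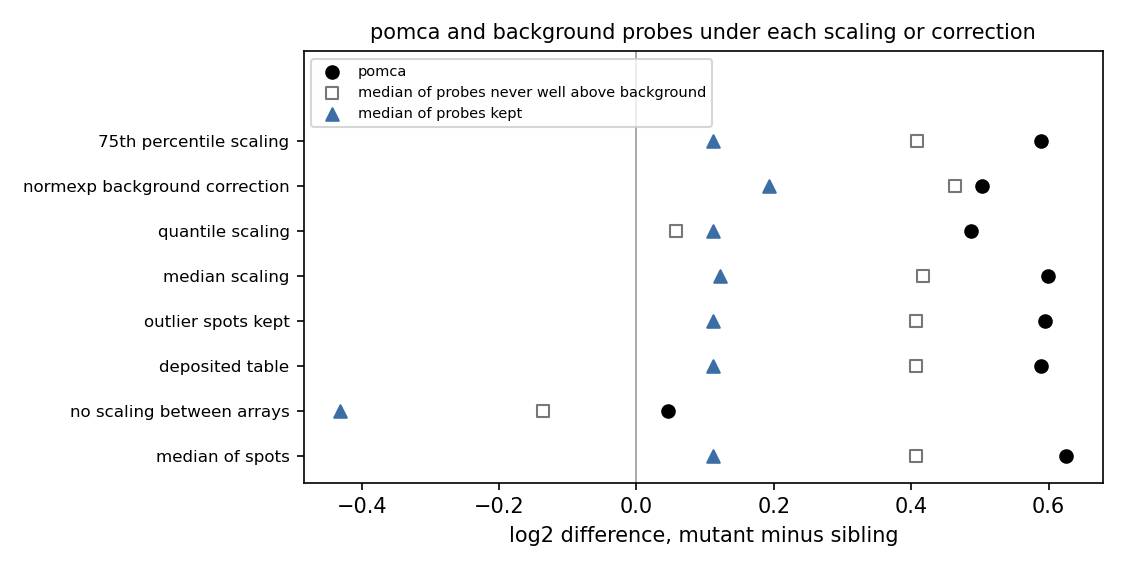
Log2 difference, mutant minus sibling, of pomca (black), the median of 6815 probes never well above background (squares) and the median of 29935 kept probes (triangles), under each scaling or background correction. With 75th percentile scaling pomca is at 0.59 and the background probes at 0.41. Without scaling all 3 values move down together, pomca to 0.046.

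The pomca signal was also set against growth hormone on the same array. The RNA was from whole bodies, so the tissue that gave the pomca signal was not tested. Growth hormone, also a pituitary hormone, had an unscaled intensity of 184, 211, 180 and 176 in the sibling pools. In the mutant pools it was 12.9, 16.6, 16.0 and 13.8. The within-array log2 difference, pomca minus gh1, was -3.00, -3.48, -3.00 and -3.29 in the sibling pools. In the mutant pools it was 0.44, 0.30, 0.42 and 0.91, and the genotypes did not overlap. The difference changed by 3.71 (exact permutation test, two-sided, p = 0.0286, again its lowest possible value), but with normexp by 1.72, and its size is uncertain because 3 of the 4 mutant arrays did not measure gh1 well above background. Most of it is the change of gh1 itself, -3.12 on the scaled log2 scale and -1.21 with normexp. The p-value therefore reflects the fall of gh1 and does not show a change of pomca. A scaling factor common to an array cancels in it, and it was 3.81 on slide row 1 and 3.61 on row 2. A level of 1 probe cannot be set against that of another, and only the change between genotypes is read here.

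**Figure D3:**
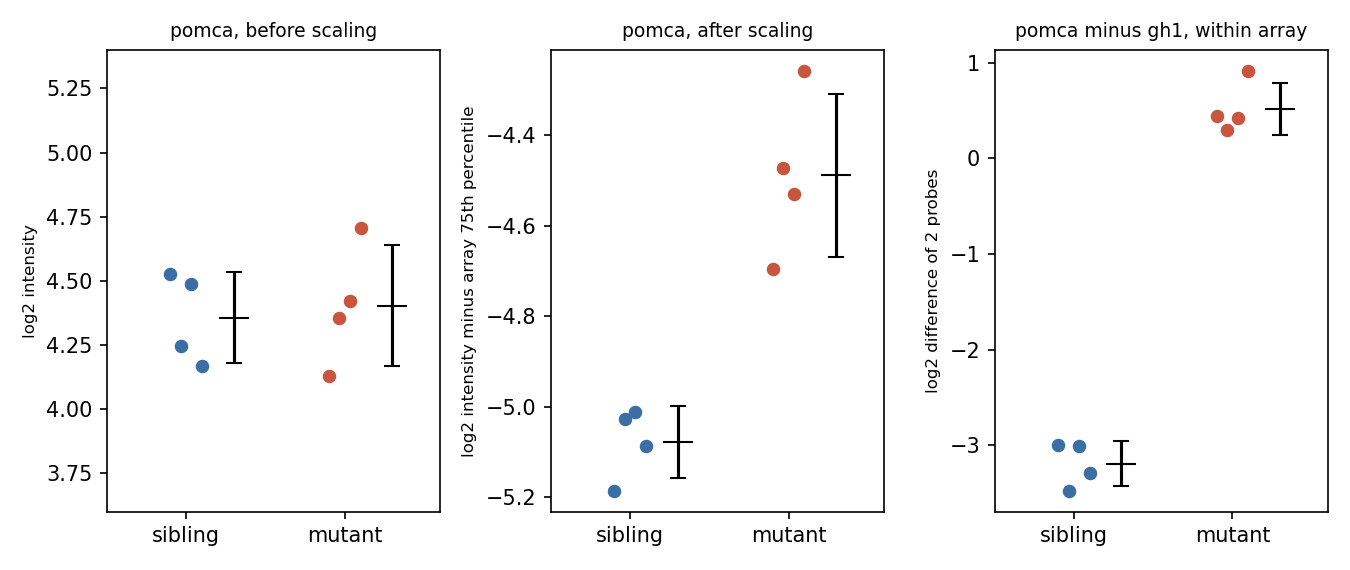
The pomca probe in the 4 sibling (blue) and 4 mutant (red) pools as log2 unscaled intensity, as log2 intensity minus the 75th percentile of the array, and as the within-array log2 difference from gh1. Bars are mean ± SD. The genotypes overlap before scaling, part after it, and lie 3.71 apart relative to gh1, or 1.72 with normexp, with gh1 measured on 1 of the 4 mutant arrays.

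Pool-to-pool variation of pomca within a genotype was compared with that of 13253 named genes well above background on all 8 arrays. Among the genes whose deviations from the genotype means were most like those of pomca were shtn1 (Pearson r = 0.99) and map2k6 (r = 0.99), over 8 pools. As they were picked as the highest of 13253 genes over few pools, their r values are no evidence of a link to pomca. The 8 arrays share a slide and a scaling step. Genes with clone or locus names were not compared. The log2 difference was -0.75 for shtn1 and -0.88 for map2k6.

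Beyond the hormones, 13 lists of genes upstream and downstream of them held 181 genes, of which 155 had a probe and 114 were tested. Many of the pituitary's own regulators were also too dim to be measured. Of 13 factors of the pituitary lineage with a probe, 6 were measured on no array, against 17.1% of all probes. The unmeasured ones included pou1f1, the factor of prolactin, growth hormone and thyrotropin cells, and lhx3, an early factor of the gland. No probe was matched to tbx19, the factor of pomca cells. Of the 6 tested, 2 were higher and 0 lower (33.3% called, against 57.6% of all named genes), with a median of 0.30, and without scaling 0 were higher and 2 lower. The 2 that were higher with scaling were isl1a (0.85 ± 0.13) and nr5a1a (0.77 ± 0.15), genes that other tissues express too. Both calls were lost without scaling. Values after gene names are log2 differences on the 75th percentile scale, mutant minus sibling, ± SE from limma with n = 4 pools per genotype, and calls are at an adjusted p of 0.05. The median over all named genes was 0.01. Without scaling every difference is lower by 0.54, which ended 31 of the 82 calls in the lists. It changed the sign of 6 more, to small values between -0.13 and -0.004. Counts without scaling stand against 1151 higher and 8822 lower of all 17263 named genes, whose median was then -0.53. Counts under normexp stand against 6287 higher and 4194 lower, with a median of 0.09, and those under median scaling against 5109 and 4551.

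The genes that signal to the pituitary from the brain were mostly higher in the mutants. Of 16 hypothalamic regulators tested, 12 were higher and 1 lower, a share of 81.2% called against 57.6% of all named genes, with a median of 0.79. Tyrosine hydroxylase (th), which makes dopamine, was higher (1.27 ± 0.11), with 0.84 under normexp. So were the neuropeptide adcyap1b (0.86 ± 0.09) and gonadotropin-releasing hormone 2 (gnrh2, 1.86 ± 0.22). The other gonadotropin-releasing hormone, gnrh3, which in zebrafish acts on the pituitary, was lower (-1.68 ± 0.19), with -0.54 under normexp. Its scaled log2 values were from -2.70 to -2.56 in siblings and from -4.77 to -3.88 in mutants, without overlap. The releasing hormones for thyrotropin and corticotropin, trh (0.98 ± 0.12) and crhb (0.70 ± 0.10), were higher as well; these 2 are named after their values were seen. Without scaling, the calls of adcyap1b, trh and crhb were lost and 4 regulators were higher and 3 lower. With scaling, 12 of the 16 lay above the median of all named genes, a count that leaving out the scaling cannot change. Under normexp and under quantile scaling it was 12 as well.

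Receptors for these signals were mostly too dim to read, with 11 of 20 measured on no array, against 17.1% of all probes. Of 8 tested, 5 were higher and 1 lower (median 0.56), against 29.9% higher and 27.8% lower among all named genes. Without scaling 2 were higher and 2 lower, with a median of 0.01 against -0.53 over all named genes. The dopamine receptor drd2b was higher (1.84 ± 0.13), with 1.196 under normexp, as was the somatostatin receptor sstr1b (1.36 ± 0.11), with 0.85. The receptor of corticotropin-releasing peptides crhr2 (0.62 ± 0.10) was higher, a call lost without scaling. The thyrotropin-releasing hormone receptor trhra (0.49 ± 0.09) was higher too, with -0.05 without scaling.

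Of 13 genes for prohormone processing and secretory granules, 12 were higher and 0 lower, with a median of 0.87. That is 92.3% called, against 57.6% of all named genes (29.9% higher). Among them was the convertase pcsk1 (1.199 ± 0.12), which makes the first cuts in the pomca precursor, and the granule proteins chgb (1.25 ± 0.08), scg2b (1.05 ± 0.11) and ptprnb (1.19 ± 0.11). Neuroendocrine cells of brain, gut and pancreas use these genes too. Neuron markers moved with both groups: 7 of 10 were higher and 1 lower (median 0.66), against 29.9% and 27.8% of all named genes. Their summed scaled level ranged from 69.7 to 78.2 in sibling pools and from 104 to 135 in mutants, in units of the 75th percentile of the array. That unit was itself smaller on the mutant arrays (454 to 499, against 611 to 839), which raises the mutant sums. The sums without scaling were not computed. The neuron markers included syt1a (1.40 ± 0.09), snap25a (0.87 ± 0.08), elavl3 (0.93 ± 0.11) and snap25b (0.70 ± 0.09). Their part in the higher regulators and granule genes was not tested. Without scaling, 5 granule genes were higher and 1 lower, and 1 neuron marker was higher and 1 lower. Over all 17263 named genes 1151 were then higher and 8822 lower. With scaling, 13 of 13 granule genes and 9 of 10 neuron markers lay above the median of all named genes. Leaving out the scaling moves all genes by the same amount, so it cannot change these counts. Under normexp, and under quantile scaling, 12 of 13 granule genes and 9 of 10 neuron markers lay above that median.

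Relatives and antagonists of the hormones went both ways. The melanocortin antagonist agrp was higher (1.78 ± 0.22), with 1.11 under normexp. The glycoprotein beta subunit gphb5 was well above background on 4 sibling arrays and 0 mutant arrays, so it entered the test through the siblings alone. With mutant values raised to the dimmest measured probe of their array it was at least 1.46-fold lower. That bound holds for the main background correction only, as the difference under normexp was 0.07. The melanin-concentrating hormone gene pmchl was higher (0.73 ± 0.25), a call lost when sibling array 1, 2 or 4, or mutant array 2, 3 or 4, was left out (adjusted p from 0.0569 to 0.0856). The second precursor gene pomcb was measured on 2 sibling arrays and 0 mutant arrays and was not tested.

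Most receptors of the pituitary hormones could not be compared. The receptors tshr, fshr, mc2r and mc4r were measured on no array, and no probe was matched to prlra. The luteinising hormone receptor lhcgr was measured on 2 mutant arrays and 0 sibling arrays, too few for the test. Of 5 receptors tested, 3 were higher, 60.0% called against 57.6% of all named genes: the melanocortin receptors mc5ra (0.87 ± 0.22) and mc5rb (0.53 ± 0.15) and the growth hormone receptor ghra (0.56 ± 0.15). All 3 calls were lost without scaling, and mc5rb was then at -0.01. On the sibling arrays mc5ra was well above background on 1. The prolactin receptor prlrb did not pass (0.79 ± 0.46, adjusted p = 0.176). Its scaled log2 values were -2.33, -3.02 and -2.97 in mutant replicates 1 to 3, and -4.76 in mutant replicate 4, below the sibling range of -4.31 to -3.78. Without mutant replicate 4 it was 1.28 (adjusted p = 0.00203), and it passed also with normexp (0.62) and with array weights (1.08). The melanocyte-stimulating hormone receptor mc1r did not pass (0.48 ± 0.37, adjusted p = 0.300), and was at -0.06 without scaling.

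Genes of the tissues on which the hormones act came last. In the list of interrenal steroid synthesis and glucocorticoid response, 2 of 9 genes were higher and 4 lower (median -0.57), and the 66.7% called was near the 57.6% of all named genes. The median was -0.07 under normexp, and without scaling 0 were higher and 6 lower. The 2 higher genes were cyp11c1 (0.57 ± 0.21) and nr3c2 (0.41 ± 0.15). Each of these calls was lost in 12 of 23 alternatives, and nr3c2 changed sign in 1 more, to -0.13. The steroid enzymes cyp11a1.1 (-4.06 ± 0.90) and cyp17a1 (-2.28 ± 0.56) and the cholesterol carrier star (-1.31 ± 0.36) were lower. Under normexp these 3 were -2.53, -1.27 and -0.67, and cyp11a1.1 and cyp17a1 were each well above background on 3 of 4 mutant arrays. Gonads use all 3 genes as well, and 6 of 7 germ cell markers were lower and 0 higher (median -2.39, against 27.8% of all named genes lower), among them nanos3 (-4.71 ± 0.87), piwil1 (-2.03 ± 0.50), gdf9 (-3.33 ± 0.86) and dazl (-2.39 ± 0.64). With normexp nanos3 was at -2.64 and gdf9 at -1.72. Of the 4 mutant arrays, 2 measured nanos3 and 3 measured gdf9 well above background, so the sizes of these 2 differences are uncertain. The oocyte gene bmp15 was not called (0.06 ± 0.24, limma, adjusted p = 0.840). Lower calls of ddx4 and dnd1 were lost in 9 and 2 of 23 alternatives. The summed level of the germ cell markers, in which bmp15 counts too, ranged from 11.4 to 21.6 in sibling pools and from 3.81 to 9.83 in mutants. The part of the germ cell markers in the lower steroid genes was not tested. The cortisol-inactivating enzyme hsd11b2 was lower (-0.73 ± 0.24), a call lost when sibling array 1, 2 or 4, or mutant array 1 or 2, was left out (adjusted p from 0.0512 to 0.0729) and with a replicate block (adjusted p = 0.0506).

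Of 7 gonadal targets tested, 1 was higher and 2 lower, 42.9% called against 57.6% of all named genes. The balance turned with the processing, to 3 higher and 2 lower under normexp and to 0 higher and 4 lower without scaling. Over all 17263 named genes the balance moved too, to 6287 higher and 4194 lower under normexp and to 1151 and 8822 without scaling. The somatic gonad factor gsdf (-2.64 ± 0.18) and the transcription factor foxl2a (-0.81 ± 0.15, -0.42 under normexp) were lower. The steroid enzyme hsd17b3 was higher (0.48 ± 0.17), a call lost when sibling array 1, 3 or 4, or mutant array 1, 2 or 3, was left out (adjusted p from 0.0621 to 0.108), with no filter on dim probes, with a trended fit, with the slide row as a block and without scaling, where it was -0.07. Of 7 thyroid targets, 2 were higher and 3 lower, 71.4% called against 57.6%. With normexp or median scaling 2 were higher and 1 lower, and without scaling 1 was higher and 4 lower. Thyroglobulin (tg), the protein on which thyroid hormone is made, was lower (-3.02 ± 0.16, -1.26 under normexp). The tg probe was well above background on 3 of 4 mutant arrays. The thyroid and brain factor nkx2.4b (1.30 ± 0.14) and the thyroid hormone receptor thrb (0.72 ± 0.12) were higher, the latter not without scaling. The receptor thraa was lower (-0.25 ± 0.09), a call lost when sibling array 3 or 4, or mutant array 1 or 2, was left out (adjusted p from 0.0645 to 0.0944), and with normexp, median scaling, no filter on dim probes or a replicate block.

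Pigment cells are targets of melanocyte-stimulating hormone and somatolactin. Of 9 pigment genes tested 1 was higher and 4 lower, and the 55.6% called was near the background of 57.6%, which is no result about the list. The melanosome protein pmela (-0.97 ± 0.09), the pigment enzyme tyrp1b (-0.86 ± 0.10) and the melanocyte factor mitfa (-0.78 ± 0.11) were lower, with mitfa at -0.20 under normexp. The melanosome transporter oca2 was higher (0.78 ± 0.16), a call lost without scaling. Ionocytes, the salt-transporting skin and gill cells on which prolactin acts, had 7 of 12 genes lower and 1 higher, 66.7% called against 57.6% of all named genes (27.8% lower), with a median of -1.28. That count and median include foxi3b and clcn2c, each well above background on 4 sibling and 0 mutant arrays. They also include slc12a10.2, on 4 and 1, and these genes passed the filter through the siblings. Under normexp clcn2c was at -0.15 and slc12a10.2 at 0.04. The ionocyte factor foxi3a (-2.73 ± 0.24), the calcium channel trpv6 (-2.05 ± 0.24) and the factor gcm2 (-1.80 ± 0.21) were lower, with foxi3a at -0.99 and trpv6 at -0.92 under normexp. Of the 4 mutant arrays, 2 measured foxi3a and 3 measured trpv6 well above background, so the sizes of these 2 differences are uncertain. The factor foxi3b was well above background on 4 sibling arrays and 0 mutant arrays, so it too entered the test through the siblings alone. With mutant values raised to the dimmest measured probe of their array it was at least 2.33-fold lower. That bound holds for the main background correction only, as the difference under normexp was -0.13 (limma, adjusted p = 0.267). With normexp 4 ionocyte genes were lower and the median was -0.08, but its offset of 50 shrinks the changes of dim genes such as foxi3b. Without scaling 10 were lower and 0 higher.

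**Figure D4:**
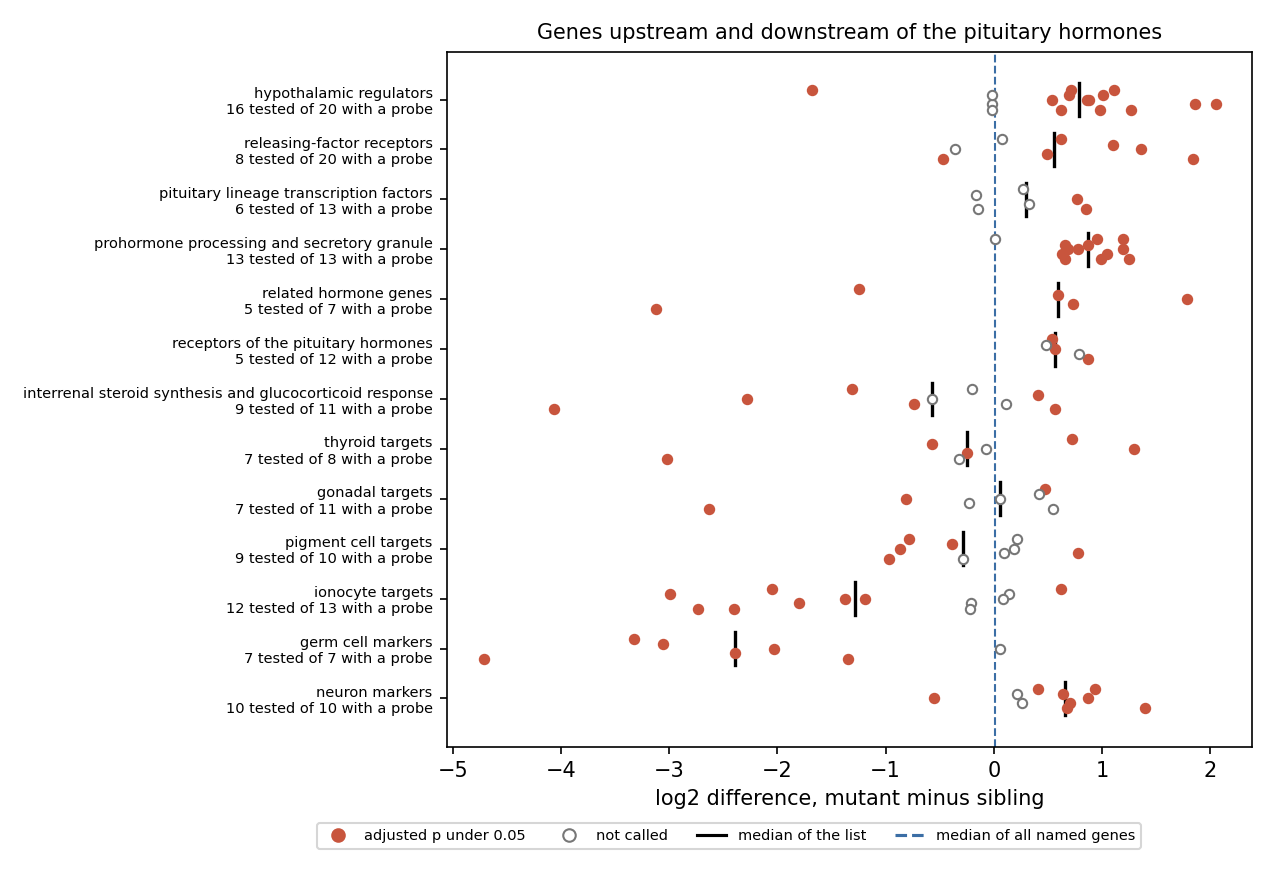
Log2 difference, mutant minus sibling, of each tested gene in 13 lists around the pituitary hormones. Filled points passed an adjusted p of 0.05, black bars are list medians and the dashed line is the median of all named genes, 0.01. Granule genes lie to the right (median 0.87) and germ cell markers to the left (median -2.39).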

How the data were processed

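Per the file headers, the deposited scanner files hold 1 background-corrected intensity per spot from Agilent Feature Extraction 10.7.3.1, a tool that the submitters' processing notes also name. The series matrix, also deposited, is in log2; its entries matched log2 intensity minus the 75th percentile of the array, averaged over spots and centred on the median of each probe, within 0.01 for 100% of values, with column medians from -0.09 to 0.17. That match gave its scale and centring.

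Control and outlier spots were left out, log2 values of a probe's spots were averaged, and the 75th percentile of each array was subtracted. Of 39749 probes, 29935 well above background on at least 4 arrays were kept. RefSeq accessions named 61.8% of probes through the GRCz12tu gene table. A gene was its brightest kept probe. The 2 genotypes were tested in limma 3.58.1 under R 4.3.3 (lmFit and eBayes, two-sided), with Benjamini-Hochberg adjustment over all kept probes. The share of probes well above background ranged from 67.3% to 76.3% per array, and the number of arrays limits the precision. No spot was saturated. All arrays lay on 1 slide.

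The named genes were the 8 hormones, gh1, in each list up to 4 called genes of smallest adjusted p, 8 receptors and 3 lineage factors, and the 3 genes most like pomca, the one member with a level, of which 1 is not reported here. The genes trh, crhb, cyp11c1, nr3c2, bmp15, ddx4, dnd1, clcn2c and slc12a10.2 are named outside this rule. These genes, and shtn1 and map2k6, were not checked for a pool standing apart. Members and lists were chosen with earlier results of these data known. The planned comparisons of members with cga, and with gh1 for members other than pomca, were not made, since those probes were not well above background on enough arrays. The planned normexp alternative used spot medians and an offset of 50, which shrinks the log2 changes of dim probes. Bounds hold for the main background correction alone. Alternatives were other background corrections, scalings, filters, fits and blocks, the deposited table, and each array left out.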

Additional observations from a re-analysis of the deposited data

Results flagged for a closer look

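In 5 of 102 groups of 4 pools, 1 pool stood apart from the other 3 by more than Dixon's 95% critical value allows. The groups were those of the tested genes named by the rule, without shtn1 and map2k6. Chance gives about 1 such group in 20. The values are scaled log2 levels. For adcyap1b, mutant replicate 4 was at 1.502 and the other mutant pools between 1.21 and 1.24. For snap25a, the same pool was at 4.28 and the others between 4.11 and 4.13. For cyp11a1.1, sibling replicate 3 was at -0.91 and the other sibling pools between 0.65 and 0.92. For gsdf, sibling replicate 2 was at 1.12 and the others between 1.69 and 1.72. For mc5ra, sibling replicate 3 was at -5.09 and the others between -5.32 and -5.30. The measured hormone pomca, and gh1, had no such pool.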

How the results depend on the processing

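The higher call of pomca kept its direction in all 24 alternatives and passed the threshold in all except no scaling between arrays. In that alternative, added after seeing the data, it was 0.046 (limma, adjusted p = 0.824). Alternatives that change only the filter, a block, the variance estimate or the averaging of probes could not move its size. Their direction was fixed in advance and is no support. With 1 array left out at a time the pomca difference was between 0.51 and 0.66. With the replicate number as a block it was 0.59 (limma, adjusted p = 0.00792). The labels do not say that replicate numbers pair the pools, and deviations of same-numbered pools correlated at 0.18, 0.10, -0.02 and -0.02. The block left 9423 named genes called, against 9950, and ended the calls of hsd11b2 and thraa among the genes named. The change of pomca relative to gh1 moved most under normexp, to 1.72. It was between 3.58 and 3.78 with 1 array left out, which says nothing about the uncertain gh1 level of the mutants. Other alternatives added after seeing the data were the median of spots, and counting an array where 50% of spots or more, or 1 spot or more, was well above background. Under each of these last 2, and with outlier spots kept, 1 of 8 hormone probes was still measured on at least 4 arrays. With no filter on dim probes, 0 of the 7 other hormone probes passed in limma, while 2 had an unadjusted p under 0.05: fshb (log2 difference 0.42, adjusted p = 0.068) and the 1-spot cga probe (0.40, adjusted p = 0.078). Both probes were at background on all 8 arrays, and the median difference of such probes was 0.41. The signal over background limits every statement on prl, fshb, lhb, cga, tshba and smtlb.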
